A study of Macaca mulatta with 102 samples.

Results

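FABP3, the heart-type or mammary-type fatty acid binding protein, was examined as a single gene, 1 of the 42701 transcripts measured in rhesus macaque milk and mammary gland. Its row, ENSMMUT00000029511, was taken by identifier, and that rule uses no measured value. The identifier lies on chromosome 1 from 34144226 to 34145760 of the rheMac2 assembly. No annotation at hand tied identifiers to symbols, so the symbol was checked by the mean level: the means of this row over biopsies, milk cells and milk fat lay within 0.200% of those listed for FABP3 in the study, and the next closest transcript was 425.5 times farther away.

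Fatty acid binding proteins are small cytoplasmic proteins that carry long-chain fatty acids through the watery interior of the cell. FABP3 is best known from heart and skeletal muscle, and it is also a major cytoplasmic protein of the lactating mammary epithelium, where fatty acids are esterified to the triglycerides of milk fat. Fat leaves the secretory cell as a droplet wrapped in cell membrane, and cytoplasm with its RNA can be caught beneath that membrane, which is why the milk fat layer was sequenced beside shed cells and tissue.

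The study asked whether RNA from milk stands for RNA of the gland. It covered 34 samples of 6 lactating macaques, M1 to M6, with no experimental treatment and no ages in the labels. For milking, the mothers were kept from nursing, sedated with ketamine and given oxytocin. Each animal gave 1 mammary biopsy, on day 30 post partum (M3, M4 and M6) or on day 90 (M1, M2 and M5), so the days of the biopsies were different animals. Milk cells, which are the washed pellet of centrifuged milk, came from all 6 animals on both days (12 samples), and milk fat came from M1, M2, M3 and M6 on day 30 and from all 6 on day 90 (10 samples). Another kind of day 90 sample carries the label FatS10 in 5 animals (spelled FatsS10 in M4) and Skim10m in M3. The study counts 6 cell-free milk samples on that day, but the labels do not use that name, so the 5 are called FatS10 here and the sample of M3 is given apart. The day 90 milk of M3, M4 and M6 followed their biopsy, and 1 unnamed macaque was given antibiotics after it.

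Levels are FPKM, fragments scaled to transcript length and to the mapped reads of the library, averaged over 3 technical runs of each sample. The runs of a sample differed little for FABP3, with a coefficient of variation between 0.242% and 4.66% (median 1.72%). FPKM hold no read counts, so no counting interval was possible. Relative depth, estimated from the spacing of low values, ranged from 0.742 to 1.63 with the median sample at 1, and only 2 of 102 runs, both of the day 30 milk fat of M6, were closest to another sample (the day 90 milk fat of M6).

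FABP3 was among the 11 most abundant transcripts in every sample. Its rank lay between 4 and 11, and it was 7th in 22 of the 34 samples, among them all 12 milk cell samples and all 5 FatS10 samples. It made up between 0.965% and 4.13% of a sample's summed FPKM. In the order of mean FPKM, the transcripts just above and below it were a beta-casein transcript (CSN2, the second of a pair of overlapping transcripts, 41588 FPKM) and the bacteriolytic enzyme lysozyme (LYZ, 18671 FPKM) in biopsies. In milk cells they were LYZ (39109 FPKM) and the surface antigen CD24 (6144 FPKM). In milk fat they were LYZ (34410 FPKM) and a transcript of the lipid droplet coat protein perilipin 2 (PLIN2, 17078 FPKM), and in FatS10 LYZ (38025 FPKM) and another PLIN2 transcript (7987 FPKM). The place of FABP3 beside LYZ was not fixed: FABP3 was the higher of both in 3 of 6 biopsies and in 5 of 10 milk fat samples, but in 0 of 12 milk cell samples and 0 of 5 FatS10 samples.

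In biopsies FABP3 stood at 24561 FPKM in M1, 38003 in M2, 21592 in M3, 9180 in M4, 13685 in M5 and 11779 in M6, a mean of 19800 ± 10693 FPKM (SD, n = 6). The highest biopsy was 4.14 times the lowest. The biopsies of M1, M2 and M3 were high and those of M4, M5 and M6 low, a division that runs across both biopsy days.

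In milk cells of day 30 the level was 22024 FPKM in M1, 21394 in M2, 26411 in M3, 19972 in M4, 26348 in M5 and 24371 in M6 (mean 23420 ± 2697, SD, n = 6). On day 90 it was 15713 FPKM in M1, 19336 in M2, 16936 in M3, 9943 in M4, 16745 in M5 and 16246 in M6 (mean 15820 ± 3137, SD, n = 6). Every day 30 value was above every day 90 value, by a narrow gap from 19972 to 19336 FPKM. After the scaling described below this separation was lost, with 15249 in M2 on day 30 and 23758 in M3 on day 90.

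In milk fat of day 30 it was 30076 FPKM in M1, 43879 in M2, 34585 in M3 and 28270 in M6 (mean 34203 ± 6976, SD, n = 4). On day 90 it was 29007 FPKM in M1, 47156 in M2, 28755 in M3, 28313 in M4, 31929 in M5 and 33467 in M6 (mean 33104 ± 7178, SD, n = 6). The days of milk fat overlapped widely, while the lowest milk fat sample, at 28270 FPKM, was above the highest milk cell sample, at 26411 FPKM. After scaling the 2 types overlapped, with 25833 in day 30 milk fat of M1 and 32869 in day 30 milk cells of M3.

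FatS10 samples held 17979 FPKM in M1, 25122 in M2, 13128 in M4, 23163 in M5 and 20020 in M6 (mean 19882 ± 4676, SD, n = 5), and the Skim10m sample of M3 held 17084 FPKM. All of these lay below every milk fat sample. The order of the group means ran from milk fat of day 30 and day 90 over day 90 biopsies (25416 FPKM), day 30 milk cells, FatS10 and day 90 milk cells to day 30 biopsies (14184 FPKM), and each neighbour in that order overlapped the next. M4 was the lowest animal in FPKM as deposited in each of the 5 sets of samples it belongs to: biopsies, milk cells of day 30, milk cells of day 90, milk fat of day 90 and FatS10. After the scaling described next it stayed lowest in 3 of them and not in day 30 milk cells or day 90 milk fat.

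**Figure D1:**
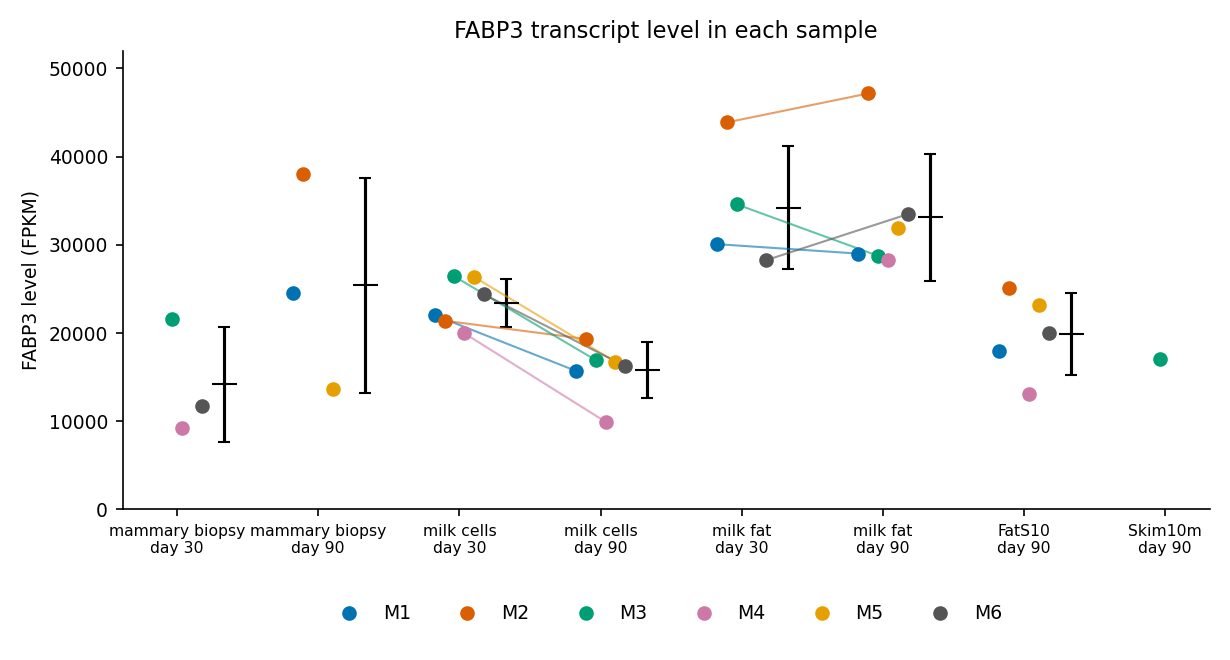
FABP3 level in FPKM (vertical axis, from 0) in each sample, by sample type and day, with 1 colour for each animal, lines joining the days of an animal in milk cells and milk fat, and black bars for the mean ± SD (none for the single Skim10m sample). Milk fat sits above milk cells, all 6 milk cell lines run downward, and the biopsies are the most spread out.

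For comparisons, FPKM were divided by a median-of-ratios factor for each sample, 1 was added and values were taken to log2; all differences that follow are on this log2(scaled FPKM + 1) scale unless FPKM is named. The factors lay between 0.691 and 1.405, and those of the biopsies of M1, M2 and M3 were 0.701, 0.761 and 0.691. Differences across all transcripts were tested with limma (two-sided, Benjamini-Hochberg adjusted over all transcripts tested), with the days of an animal averaged where sample types were compared. Since the same animals gave the samples, differences within animals were also tested by exact sign-flip permutation, two-sided, with adjustment over the 8 comparisons. That test cannot give a p below 0.03125 with 6 animals, 0.0625 with 5 or 0.125 with 4. After adjustment over the 8 comparisons none of its values could pass 0.05, whatever the data, so its adjusted values decide nothing.

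Milk fat held more FABP3 than milk cells, by 0.84 (SE 0.20, 95% interval 0.41 to 1.26, limma adjusted p = 0.00494, 6 animals against 6), which was 1.71-fold in FPKM within animals. The background was large: 43.7% of the 13521 transcripts tested were called in this comparison, although 93.6% of them had a lower difference than FABP3. The difference was positive in 6 of 6 animals, 0.63 in M1, 1.36 in M2, 0.40 in M3, 1.33 in M4, 0.71 in M5 and 0.62 in M6 (exact sign-flip p = 0.03125, adjusted p = 0.125). Samples that share the first number of their title are called a library set here, and the titles do not say what that number stands for. The difference was positive in each of the 3 library sets, with means of 0.99, 0.86 and 0.66. It stayed called with any animal left out (limma adjusted p 0.00221 to 0.0294). The call was lost without the filter on low values (SE 1.15, adjusted p = 0.656), and the difference was 0.45 when samples were scaled to the total of all but the 20 highest transcripts (adjusted p = 0.0175). M4 and M5 gave milk fat on day 90 only, set against milk cells averaged over both days. With samples of the same animal and day only, each day as its own value, the difference was 0.88 (SE 0.19, limma adjusted p = 0.00090). That fit called 6663 of 13451 transcripts. Since these are bulk RNA samples, a greater number of FABP3-bearing cells or crescents and more FABP3 RNA in each cannot be told apart.

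Milk fat also stood above biopsies in FPKM in 6 of 6 animals, from 1.20-fold in M2 and 1.20-fold in M1 to 3.08-fold in M4. The biopsy of M4 was of day 30 and its only milk fat of day 90. On the scaled values the sign was not shared: M1 was lower in milk fat by −0.36 and M2 by −0.43, while M3, M5, M6 and M4 were higher by 0.24, 1.02, 1.52 and 2.03. The mean difference was 0.67 (SE 0.40, 95% interval −0.19 to 1.53, limma adjusted p = 0.168), where 55.0% of 13413 transcripts were called. With FPKM as deposited it was 0.88 (limma adjusted p = 0.0249, with 50.8% of transcripts called), and over the alternatives the adjusted p ranged from 0.0249 to 0.658. Without M4 the difference was 0.40, and with scaling to the total of all but the 20 highest transcripts it was 0.23, with no call in either case. With samples of the same animal and day only, the difference was 0.46 (SE 0.40, limma adjusted p = 0.354). The 3 biopsies with the highest FABP3 were those with the lowest scaling factors, and the part of this in the result was not tested. Within library sets the mean difference was −0.39 in set 2 (M1 and M2), 1.14 in set 3 (M3 and M4) and 1.52 in set 4 (M6), leaving out M5, whose biopsy and milk were in different sets, so that the sign differed between sets. Scaling also moved the median of all transcripts in this comparison, from 0.07 to 0.23 with FPKM as deposited and to −0.27 with the total of all but the 20 highest transcripts. Relative to that median the FABP3 difference was 0.60, 0.66 and 0.50, but with the last scaling only 3 of 6 animals stood above 0.

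Between biopsies and milk cells no difference of FABP3 was detected (milk cells minus biopsies −0.17, SE 0.42, 95% interval −1.07 to 0.74, limma adjusted p = 0.767), where 43.0% of 14172 transcripts were called. The animals divided into M1, M2 and M3 with lower values in milk cells (−0.99, −1.78 and −0.16) and M4, M5 and M6 with higher ones (0.71, 0.31 and 0.91). The sign of the mean turned to 0.11 with FPKM as deposited and to 0.16 without M2, with no call in either case.

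FatS10 samples held less FABP3 than the milk fat of the same day, by −0.91 (SE 0.22, 95% interval −1.39 to −0.43, limma adjusted p = 0.0222, 5 animals against the same 5), and 21.0% of 12841 transcripts were called. The animals were lower by −0.74 in M1, −1.04 in M2, −1.52 in M4, −0.39 in M5 and −0.88 in M6, 5 of 5 (exact sign-flip p = 0.0625, the smallest for 5 animals). With the Skim10m sample of M3 added, the difference was −0.91 (limma adjusted p = 0.00537, with 30.5% of transcripts called). Leaving out M1, M2, M4 or M6 ended the call, with adjusted p from 0.0660 to 0.0832, at differences of −0.96, −0.88, −0.76 and −0.92. Those fits called 1, 4, 0 and 0 of all transcripts, so calls were lost throughout and not for FABP3 in particular.

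FatS10 samples were above the day 90 milk cells of the same animal in 5 of 5 animals, by 0.22 in M1, 0.64 in M2, 0.38 in M4, 0.49 in M5 and 0.16 in M6. The mean difference of 0.38 was not called without regard to animal (SE 0.22, 95% interval −0.11 to 0.87, limma adjusted p = 0.319), and was called with animal as a block (SE 0.11, limma adjusted p = 0.0434). Of 13579 transcripts 3.62% were called in the first of these fits and 25.8% in the second, and over the alternatives the adjusted p ranged from 0.0434 to 0.987. Against biopsies, which were of day 30 in M4 and M6, FatS10 differed by −0.06 (SE 0.47, 95% interval −1.10 to 0.98, limma adjusted p = 0.931). Here 40.0% of 13868 transcripts were called. FABP3 in FatS10 thus lay between the day 90 milk cells and the day 90 milk fat in each of the 5 animals.

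**Figure D2:**
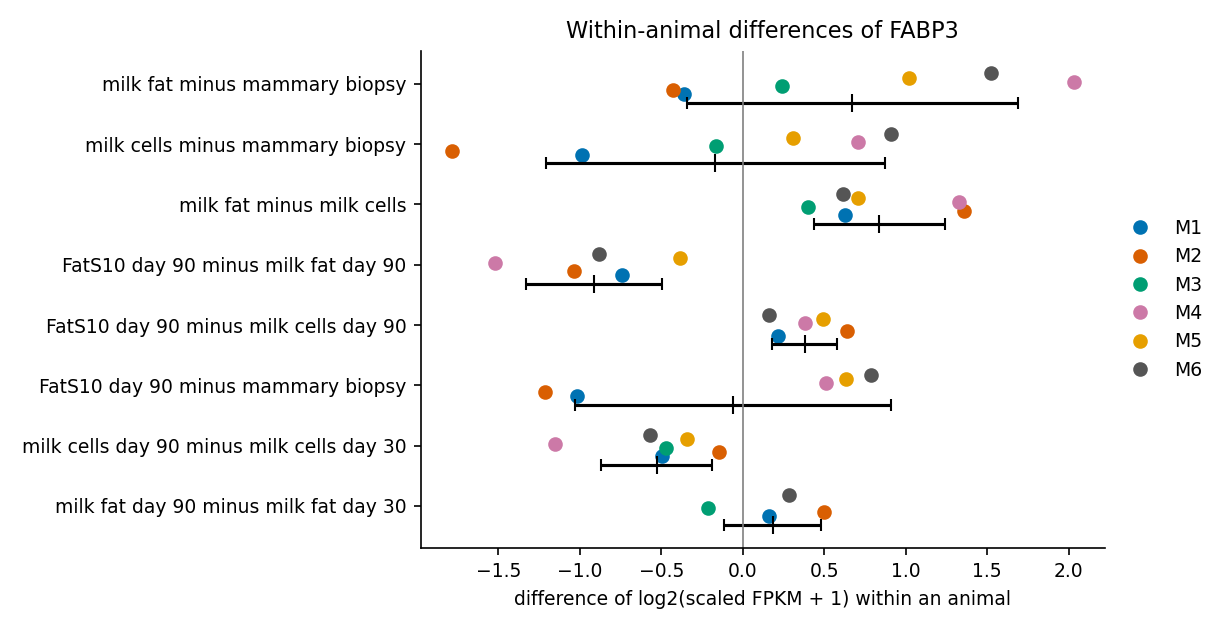
Within-animal differences of FABP3 on the log2(scaled FPKM + 1) scale (horizontal axis) for 8 comparisons (vertical axis), with 1 point for each animal and black bars for the mean ± SD. Points lie on 1 side of 0 for milk fat against milk cells, for FatS10 against milk fat and milk cells, and for the days of milk cells, and on both sides for every comparison with biopsies.

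From day 30 to day 90 FABP3 in milk cells was lower in 6 of 6 animals, by −0.50 in M1, −0.14 in M2, −0.47 in M3, −1.15 in M4, −0.34 in M5 and −0.57 in M6 (exact sign-flip p = 0.03125, adjusted p = 0.125). In FPKM this was 0.666-fold on average. The mean of −0.53 was not called by limma without regard to animal (SE 0.25, 95% interval −1.06 to 0.01, adjusted p = 0.177), and with animal as a block it was called (SE 0.13, limma adjusted p = 0.0259). Of 13815 transcripts 5.10% were called in the first fit and 25.0% in the second, and the first count, 705, depended on single animals, at 2897 without M3, 97 without M4 and 0 or 1 without any other. Over the alternatives the adjusted p ranged from 0.0259 to 0.925. The difference was −0.73 on average in the 3 animals biopsied on day 30 and −0.33 in the 3 biopsied on day 90, and the part of the biopsy in it was not tested. Library sets gave means of −0.32, −0.81 and −0.45. Scaling to the total of all but the 20 highest transcripts moved the median of all transcripts from −0.04 to 0.14, and FABP3 to −0.30 with 1 animal above 0. Relative to the median it lay between −0.51 and −0.44 under the 4 scalings, as milk fat minus milk cells lay between 0.69 and 0.79 and FatS10 minus milk fat between −0.89 and −0.81.

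In milk fat FABP3 did not differ detectably between the days (0.15, SE 0.20, 95% interval −0.29 to 0.58, adjusted p = 0.973). The 4 animals with both days differed by 0.16 in M1, 0.50 in M2, −0.22 in M3 and 0.29 in M6. limma called 0 of 12609 transcripts here, with 661 at an unadjusted p under 0.05. In biopsies, day 90 stood above day 30 by 1.082 (SE 0.64, 95% interval −0.47 to 2.64, adjusted p = 0.960), but with 3 animals against 3 other animals the days overlapped, and limma called 0 of 13762 transcripts, with 441 at an unadjusted p under 0.05. The day difference in milk fat was above that in milk cells by 0.67 (SE 0.31, adjusted p = 0.307), with 0 of 13521 transcripts called and 2107 at an unadjusted p under 0.05. Within the 4 animals that allow it, it was above in 4 of 4, by 0.60 ± 0.25 (SD, n = 4). The exact sign-flip p of 0.125 is the smallest for 4 animals and decides nothing. With animal as a block 1307 of the 13521 transcripts were called, and without M3 527 of 13803. Over the alternatives the limma adjusted p of FABP3 ranged from 0.0816 to 0.683, so FABP3 was called in none of them.

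Other abundant transcripts give FABP3 a setting. The 21 others that could be tied to a symbol were listed by the study for their abundance in these samples and are no independent evidence of direction. From milk cells to milk fat 7 of the 21 were higher, 1 was lower and 13 were not called, with a median difference of 0.16 against 0.05 over all transcripts tested, of which 43.7% were called. The 4 transcripts that the study lists as PLIN2, the coat protein of the milk fat droplet, rose by 4.12 to 4.91, far more than FABP3. They make up 4 of the 7 that were higher. Their loci do not overlap and lie on chromosome 15 and, for 1 of 376 bases, on chromosome 14. FABP3 came next in size. The others called higher were SERF2 at 0.79, the ATP synthase subunit ATP5J2 at 0.64 and the ferritin heavy chain FTH1 at 0.59. GLYCAM1, at 0.66, was not called (limma adjusted p = 0.0519). The loci of ATP5J2 (268 bases) and TPT1 (520 bases) are also short. Whether reads of related copies were counted at such loci was not tested. B2M, the light chain of MHC class I that nucleated cells carry, was the transcript called lower. The main milk protein transcripts, both of CSN2, CSN3 (kappa-casein), LALBA (alpha-lactalbumin, which turns galactosyltransferase into lactose synthase) and LGB2 (beta-lactoglobulin), were not called in this comparison.

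From biopsies to milk fat 8 of the 21 were higher, 4 lower and 9 not called, beside 55.0% called over all transcripts. PLIN2 rose by 4.84 to 5.81, LALBA by 1.05, and CSN3 fell by 0.96. From milk fat to FatS10, 0 of the 21 were higher, 6 were lower and 15 were not called, and the 6 were the 4 PLIN2 transcripts, SERF2 and ATP5J2. Over all transcripts 21.0% were called, 1117 higher and 1578 lower. From day 30 to day 90 of milk cells 0 of the 21 were called, with a median of −0.28 against −0.04 over all transcripts, of which 5.10% were called.

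**Figure D3:**
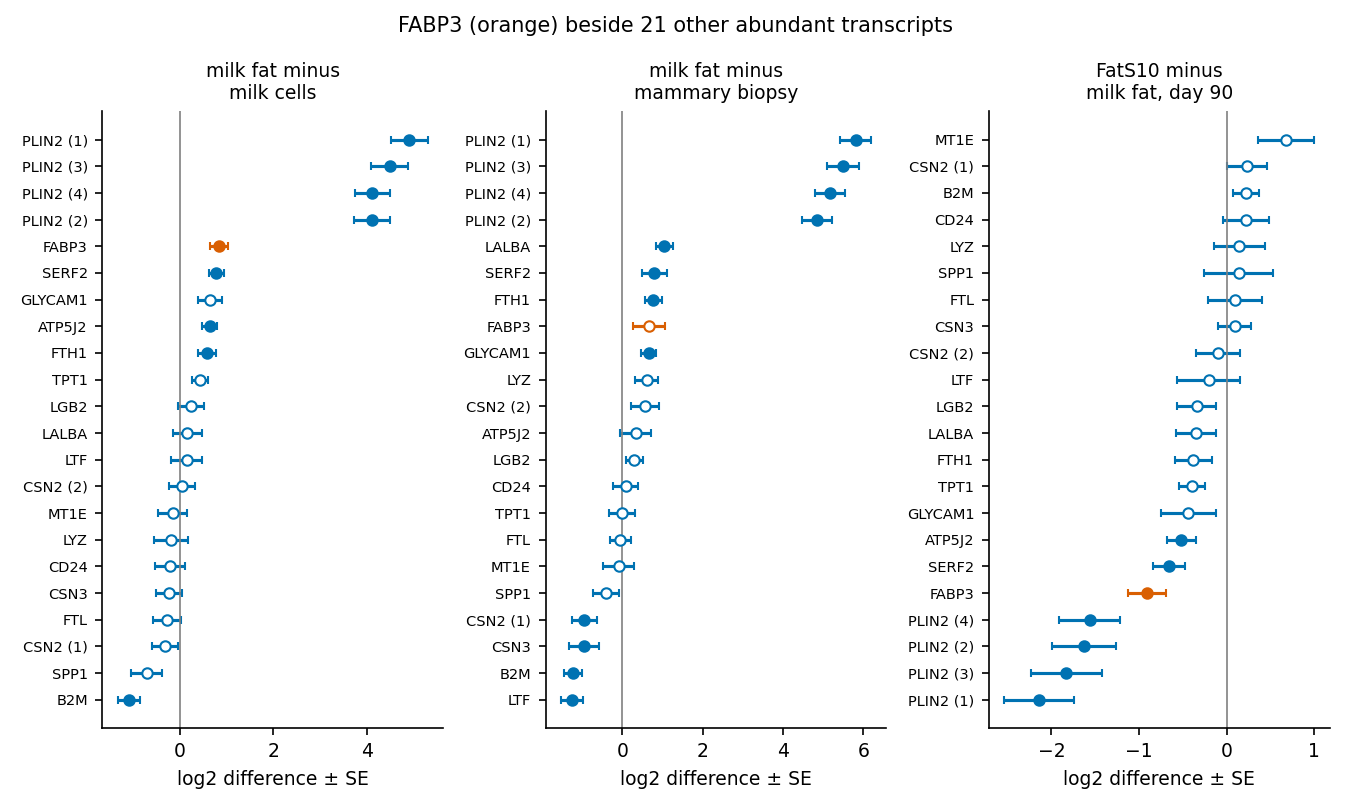
Difference of log2(scaled FPKM + 1) with its SE (horizontal axis) for FABP3 in orange and 21 other abundant transcripts in blue (vertical axis, in order of size), from limma; filled points passed an adjusted p of 0.05. PLIN2 stands apart at 4.12 and more between milk cells and milk fat, and FABP3 comes next at 0.84.

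Ratios within a sample need no scaling between samples, so FABP3 was also set against the 4 milk protein transcripts. It amounted to 5.43% of CSN2 (the first, more abundant transcript) in milk cells and 12.5% in milk fat, and to 34.8% of CSN3 in milk cells and 75.5% in milk fat. Within animals the log2 ratio was higher in milk fat by 1.16 ± 0.44 against CSN2, 1.07 ± 0.22 against CSN3, 0.68 ± 0.22 against LALBA and 0.59 ± 0.17 against LGB2 (SD, n = 6, each in 6 of 6 animals, exact sign-flip p = 0.03125, adjusted p = 0.0536 over 12 tests). No animal went the other way for any of the 4, and the adjusted values stayed just above 0.05.

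Against biopsies the ratio depended on the reference. From biopsies to milk fat the log2 ratio to CSN3 differed by 1.63 ± 0.21 and that to CSN2 by 1.62 ± 0.28, higher in 6 of 6 animals each (exact sign-flip adjusted p = 0.0536). To LALBA it differed by −0.37 ± 1.22 and to LGB2 by 0.37 ± 0.89, with animals on both sides. The CSN2 reference is again the first transcript, whose limma difference from biopsies to milk fat was −0.94. The second, overlapping CSN2 transcript differed by 0.57 (not called), beside 0.67 for FABP3, and the ratio to it was not tested. In milk cells the ratio to all 4 references was lower on day 90 than on day 30 in 6 of 6 animals, by means of −0.24 for LALBA, −0.63 for LGB2, −0.65 for CSN3 and −0.79 for CSN2.

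**Figure D4:**
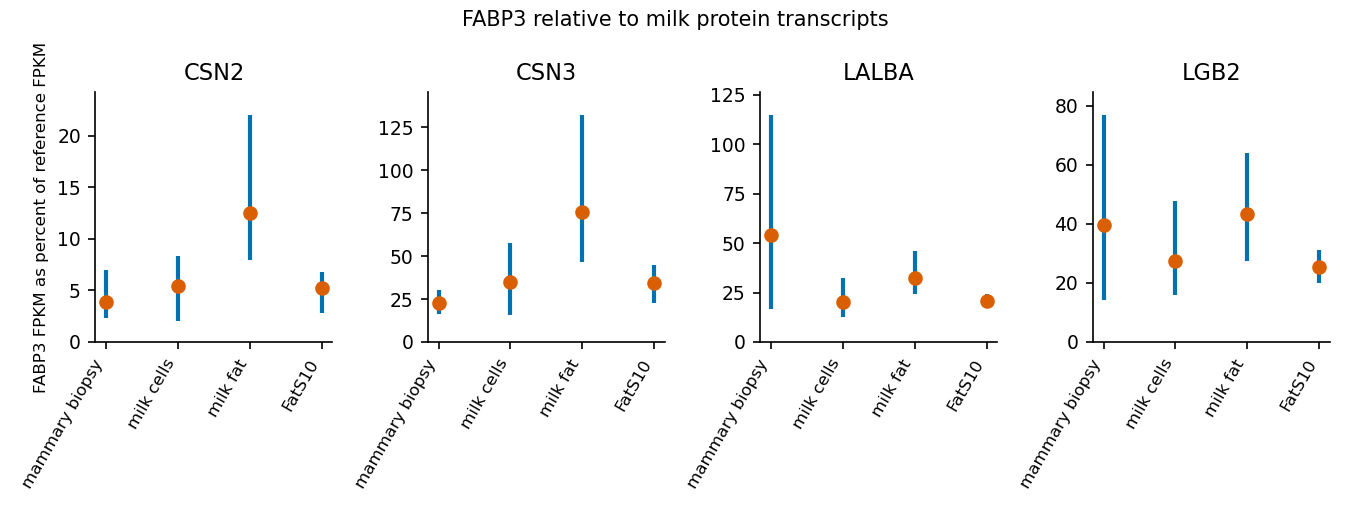
FABP3 FPKM as a percent of the FPKM of CSN2, CSN3, LALBA and LGB2 (vertical axes, each from 0) by sample type, with the mean as a point and a line from the lowest to the highest sample. Against CSN2 (its first, more abundant transcript) and CSN3, milk fat stands above biopsies. Against LALBA and LGB2 the biopsies reach both below and above the milk fat samples.

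The spread of the biopsies was shared by other transcripts. CSN3 was 103962 FPKM in M1, 124911 in M2 and 112984 in M3, but 57215 in M4, 63046 in M5 and 46281 in M6, the same animals that were high and low in FABP3. LALBA ran the other way, with 27654, 33064 and 32468 FPKM in M1, M2 and M3 against 54881, 75671 and 59139 in M4, M5 and M6. The ratio of FABP3 to CSN3 averaged 22.7% ± 5.03 over biopsies (SD, n = 6), a smaller relative spread than that of FABP3 itself. B2M varied 1.46-fold over the same biopsies and was highest in M2, and the part of cell makeup in the spread of FABP3 was not tested.

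No relation between an animal's levels in different sample types passed its test, and the size of each depended on the scaling. Across the 6 animals Pearson's r was 0.21 between biopsies and milk fat (exact permutation p = 0.701), 0.17 between biopsies and milk cells (p = 0.756) and 0.05 between milk cells and milk fat (p = 0.907). Spearman's rho was 0.20 (exact p = 0.714), 0.03 (p = 1) and −0.09 (p = 0.919). Between the days of milk cells r was 0.67 (exact permutation p = 0.114, adjusted p = 0.456) and rho 0.89 (exact p = 0.0333, adjusted p = 0.133 over 4 relations). Without the 2 animals farthest from the median, r was 0.08, 0.27, −0.71 and 0.59 in the same order. With FPKM as deposited r was larger between sample types, at 0.75 (exact permutation p = 0.0569, adjusted p = 0.228), 0.54 (p = 0.292) and 0.45 (p = 0.246), and 0.54 between the days (p = 0.268).

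The transcripts whose log2 levels ran most like FABP3 over the 34 samples, among 13707 whose mean reached 1 FPKM, were ENSMMUT00000041966 on chromosome 5 (92213722 to 92213998, r = 0.92) and ENSMMUT00000014846 on chromosome 4 (114980824 to 114981303, r = 0.92). For deviations from the means of sample type and day the first was ENSMMUT00000022810 on chromosome 6 (130376658 to 130398442, r = 0.92). Of the named transcripts SERF2 was the closest by levels over the 34 samples, at place 9 with r = 0.90. An unnamed transcript whose locus spans that of SERF2, ENSMMUT00000032038 on chromosome 7 (22185162 to 22194966), was at place 3 (r = 0.91). ATP5J2 followed at place 18 (r = 0.89) and TPT1, a translationally controlled protein, at place 100 (r = 0.81), while PLIN2 transcripts lay between 0.48 and 0.52. By deviations ATP5J2 was the closest, at place 9 (r = 0.88), with SERF2 at place 13 (r = 0.88) and TPT1 at place 53 (r = 0.83). PLIN2 transcripts then lay between 0.13 and 0.26. The samples of an animal and the runs of a library set are shared among these points, so the values are a description.

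The deposited locus of FABP3 spans 1535 bases, whereas the RefSeq FABP3 gene of the T2T-MMU8v2.0 assembly, also on chromosome 1, spans 7277 bases between SERINC2 and ZCCHC17. Since FPKM are divided by transcript length, the rank of FABP3 among genes rests on the length of the rheMac2 model. The study reports lower RNA integrity in macaque milk fat than in milk cells or mammary tissue. It also left some day 30 milk RNA unsequenced for insufficient quality, and day 30 milk fat of M4 and M5 is absent here. Whether the part of the gene that the model covers, or the integrity of the RNA, bears on differences between sample types was not tested. No other transcript overlapped the locus. The nearest, 3 overlapping transcripts that end 938 to 946 bases before it, had mean levels of 9.89, 1.93 and 2.40 FPKM. Whether reads of other fatty acid binding protein genes were counted with FABP3 was not tested. Those genes, and other genes of milk fat synthesis apart from PLIN2, could not be tied to transcripts and were not analysed here.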

How the data were processed

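Poly(A) RNA libraries were sequenced by the authors as single 100-base reads in 3 runs per library. Reads were trimmed with Scythe and Sickle, mapped to rheMac2 with Bowtie and TopHat, and given an FPKM for each Ensembl release 67 transcript by Cufflinks. The deposited values are these FPKM (tool versions are not given in the sources used here). Of 108 columns, 102 were used and 6 were not, since their names match no sample. Read counts, which the authors tested separately, were not used here.

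Runs were averaged to 34 samples. Each sample was divided by its median-of-ratios factor, computed on 21792 transcripts above 0 throughout. limma 3.58.1 (R 4.3.3, prior variance with trend) was fitted to log2(scaled FPKM + 1), leaving out transcripts whose mean FPKM in the compared samples was under 1. The fits were tested on simulated data. Other steps ran in Python 3.11.15 (matplotlib 3.10.9, pandas 2.3.3, numpy 2.4.6, scipy 1.17.1).

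Pairing by animal comes from the labels. Deviations from group means correlated within animals by 0.162 on average for biopsies with milk fat (0.0784 to 0.260), by 0.190 for biopsies with milk cells, and by 0.414 for the milk types. Whether samples of a group were separate draws beyond the animal is not stated. The p-values of limma fits without a block measure the spread between animals. Those of the sign-flip tests, ratios included, and of the block fits measure how differences within animals vary from animal to animal.

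FABP3 was proposed, and the lists were chosen, with earlier results of these data known, although the rule that picks its row uses an identifier alone. Transcripts named are FABP3, its neighbours in rank and position, those of the study's lists of abundant transcripts, matched by mean FPKM (22 names, all within 1.52%), and those correlated best with FABP3. Fatty acid and cell marker lists could not be tied to identifiers. Alternatives covered scaling, pseudocount, filter, trend, joint fits, animal as a block, days matched, the Skim10m sample and each animal left out.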

Additional observations from a re-analysis of the deposited data

Results flagged for a closer look

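The day 90 milk fat sample of M2 held 47156 FPKM of FABP3, and its gap to the next sample, divided by the range of the 6 samples, was 0.726, above Dixon's 95% critical value of 0.625. Chance passes this value in about 1 in 20 groups, and 6 groups were examined. The day 90 milk cells of M4, at 9943 FPKM, came close at 0.614. In FPKM as deposited M2 was the highest in 5 of its 6 sets of samples, all but day 30 milk cells, and after scaling it was the highest in biopsies and day 90 milk fat, 2 of 6. Without M2 the day 90 mean of milk fat was 30294 FPKM.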

How the results depend on the processing

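Of 143 alternative limma values of FABP3, 127 kept their direction and their side of the threshold. The within-animal tests, the ratio tests, the correlations and the mean levels are left out of this count. No adjusted within-animal value could pass with so few animals, and the mean levels have no test. The ratio tests and correlations did not pass 0.05 after adjustment in any setting. With FPKM as deposited, milk fat minus biopsies became called at 0.88, and signs turned for values that were never called: milk cells minus biopsies to 0.11, FatS10 minus biopsies to 0.20 (both also within animals) and the days of milk fat to −0.0501. Without a filter on low values the calls for milk cells against milk fat (0.84) and FatS10 against milk fat (−0.91) were lost, the SE having grown to 1.15 and 1.21, and FatS10 against milk fat was also lost with all types fitted together (−0.91). The replicate block by animal, a paired fit, brought calls for FatS10 against milk cells (0.38) and the days of milk cells (−0.53), and changed no other call. Leaving out an animal gave −0.38 to 0.16 for milk cells minus biopsies, −1.04 to −0.76 for FatS10 against milk fat, −0.27 to 0.23 for FatS10 minus biopsies and −0.439 to 0.0126 for the ratio to LGB2 between biopsies and milk cells, with the same ranges within animals for both comparisons to biopsies. The background counts moved more than 1.5 times in several fits: for the days of milk cells 705 transcripts were called, against 0 with FPKM as deposited or without the filter, 1230 with the total of all but the 20 highest, 2340 with all types together, 3454 with the replicate block and 0 to 2897 with an animal left out. For FatS10 they were 2695 against milk fat (978 without the filter, 5148 with the block, 0 to 2621 with an animal left out) and 492 against milk cells (7 to 157 with an animal left out, 52 to 3497 otherwise). For the difference in day effect between milk fat and milk cells they were 0, against 1307 with the block and 527 without M3. Where not stated, the cause was not tested. Alternatives without the day 30 milk fat of M6, all those of the difference in day effect and the correlations with FPKM as deposited were added after seeing the data and changed no call. Relative depth is known, but read counts are not, so counting error stayed unmeasured.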
